A study of Mus musculus with 9 samples.

Results

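Imprinted genes were described in the livers of male mouse offspring conceived in 3 ways. The list held 48 known imprinted mouse genes, chosen by name, and all 48 were matched to the 55335 Ensembl identifiers of the deposited table. Of these, 39 were annotated as protein-coding and 9 as non-coding. In the textbook assignment used here, 25 are expressed from the paternal copy and 23 from the maternal copy.

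Genomic imprinting is the expression of a gene from 1 parental copy, set by DNA methylation that is laid down in the egg or the sperm and kept through the early embryo. Imprinted genes lie in clusters around imprinting control regions, and many of them govern growth of the fetus and the placenta. In liver, H19, Igf2 and Dlk1 are known as fetal genes that are silenced after birth. Some listed genes are imprinted only in particular tissues, such as Ube3a in neurons, Ddc in heart and Dcn in placenta. The table gives the total RNA of a gene, so the parental copies were not measured separately.

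All 9 mice were B6D2F2 males aged 20 weeks, fed chow and fasted for 4 h before the liver was taken, with 3 mice per group. NC-chow mice were conceived naturally. IVF-chow mice came from in vitro fertilized 2-cell embryos of B6D2F1/J parents that were placed fresh into the oviducts of pseudopregnant ICR females, and FET-chow mice from such embryos that had been frozen and thawed first. Superovulation, culture, transfer and the strain of the pregnant female thus differed together between the NC-chow mice and the others and cannot be told apart. The labels number the mice 1, 5 and 6 in NC-chow and 2, 3 and 4 in both other groups. The library numbers in the labels of NC-chow mice 5 and 6 lie apart from those of the other 7 mice, and what these numbers stand for is not given in the sources used here. Litters were not given either, so p-values measure the spread between these mice.

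The values are FPKM, which are fragments scaled to transcript length and to the size of the library. The table holds no counts, and the number of mapped fragments was inferred from low values, which move in steps of 1 fragment. It came to 6600000, 11950000 and 13350000 fragments for NC-chow mice 1, 5 and 6. The IVF-chow libraries held 8440000, 4510000 and 3890000 fragments and the FET-chow libraries 2020000, 2810000 and 2940000. Nuclear protein-coding genes made up 4.36% to 29.3% of the summed FPKM of a library, and 3 non-coding entries (AY036118, Gm23935 and CT010467.1) made up 3.49% to 61.9%. Genes of the mitochondrial genome made up 27.6% to 55.3%. The protein-coding share was lowest in IVF-chow mouse 2 (4.36%) and FET-chow mouse 4 (4.41%). All 9 matched hepatocyte markers were above 0 in every mouse, with summed levels of 20400 to 35100 FPKM in NC-chow, 5840 to 56400 FPKM in IVF-chow and 7810 to 27700 FPKM in FET-chow. Hprt in FET-chow mouse 4, and Pgk1 and Gusb in FET-chow mouse 2, were listed at 0 although every cell uses them. A value of 0 is therefore reported only as listed at 0. In whole liver, fewer cells of a type and less RNA per cell cannot be told apart.

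Promoter sequences are shown first for 6 of the members whose values separated groups below, since imprints are read as methylation of CG dinucleotides. Each window holds 250 bases before and 50 bases after a RefSeq transcript start in the build GRCm38.p6, written 5′ to 3′ on the strand of the gene, with every CG in capitals. RefSeq gave 54 windows for 37 of the 48 members. Snrpn and Snhg14 share the window at the start farthest upstream, and Snrpn has 3 further starts within its own locus, of which the one with the most CG dinucleotides is shown.
Snrpn and Snhg14, chr7:60450128-60450427, minus strand: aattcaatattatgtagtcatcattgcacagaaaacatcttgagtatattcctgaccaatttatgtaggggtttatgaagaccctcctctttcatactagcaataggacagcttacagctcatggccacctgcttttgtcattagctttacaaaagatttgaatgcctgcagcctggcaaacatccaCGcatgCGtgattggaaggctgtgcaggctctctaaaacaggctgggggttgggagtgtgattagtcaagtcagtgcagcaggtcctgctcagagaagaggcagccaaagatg
Snrpn, chr7:60005150-60005449, minus strand: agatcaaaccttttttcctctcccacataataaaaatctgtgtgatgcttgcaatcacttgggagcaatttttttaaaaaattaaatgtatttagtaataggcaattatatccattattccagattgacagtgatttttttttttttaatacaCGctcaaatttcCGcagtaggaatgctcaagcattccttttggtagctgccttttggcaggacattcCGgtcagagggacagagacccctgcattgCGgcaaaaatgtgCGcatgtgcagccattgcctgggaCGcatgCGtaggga
Ube3a, chr7:59228500-59228799, plus strand: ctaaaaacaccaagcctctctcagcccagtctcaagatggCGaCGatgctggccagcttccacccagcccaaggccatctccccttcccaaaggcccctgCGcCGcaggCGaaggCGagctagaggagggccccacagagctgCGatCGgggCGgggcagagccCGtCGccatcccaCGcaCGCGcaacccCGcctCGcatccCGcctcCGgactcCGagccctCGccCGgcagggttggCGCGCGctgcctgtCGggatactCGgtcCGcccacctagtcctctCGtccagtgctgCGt
Mcts2, chr2:152686898-152687197, plus strand: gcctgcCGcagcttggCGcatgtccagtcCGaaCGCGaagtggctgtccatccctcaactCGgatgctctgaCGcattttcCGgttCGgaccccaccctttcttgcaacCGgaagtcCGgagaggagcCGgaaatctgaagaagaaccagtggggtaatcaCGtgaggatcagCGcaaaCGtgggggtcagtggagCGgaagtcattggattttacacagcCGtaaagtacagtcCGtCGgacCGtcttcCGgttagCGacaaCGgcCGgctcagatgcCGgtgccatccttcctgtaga
Zrsr1, chr11:22971755-22972054, plus strand: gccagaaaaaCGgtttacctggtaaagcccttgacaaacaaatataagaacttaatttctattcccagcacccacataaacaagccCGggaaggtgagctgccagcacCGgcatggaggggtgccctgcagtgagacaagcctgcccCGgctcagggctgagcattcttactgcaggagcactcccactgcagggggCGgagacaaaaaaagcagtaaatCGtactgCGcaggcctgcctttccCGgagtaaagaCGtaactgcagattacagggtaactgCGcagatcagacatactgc
Plagl1, chr10:13090582-13090881, plus strand: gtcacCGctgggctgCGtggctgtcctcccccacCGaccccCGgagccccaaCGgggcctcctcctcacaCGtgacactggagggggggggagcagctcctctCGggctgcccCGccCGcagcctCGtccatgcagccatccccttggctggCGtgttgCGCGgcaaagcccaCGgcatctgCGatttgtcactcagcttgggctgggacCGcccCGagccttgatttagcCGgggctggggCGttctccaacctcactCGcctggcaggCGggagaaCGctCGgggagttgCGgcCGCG

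The shared start of Snrpn and Snhg14 held 2 CG dinucleotides, and the 3 further starts of Snrpn held 3, 4 and 7, the last at chr7:60005150-60005449. The windows of Zrsr1, Mcts2, Plagl1 and Ube3a held 10, 25, 26 and 29. Over the 54 member windows the median was 14.5, with a range from 0 to 48, and over all 32851 RefSeq windows it was 7.0. The hexamer TGCCGC, the core of the motif bound by ZFP57, a guard of imprints, was searched on both strands (as TGCCGC and as GCGGCA). It was present in 12 member windows (22.2%), from 11 genes, and in 11.6% of all windows. It occurred once each in the windows of Mcts2, Plagl1 and the Snrpn start with 7 CG dinucleotides, and these letters were not in the windows of Ube3a, Zrsr1 or the shared start. The hexamer itself holds a CG, and the shares of member windows and of all windows were not matched for CG count. Overlapping windows of a gene, as in Mest, were counted separately. DNA methylation was not measured in these samples.

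Detection was described first. Between 15 and 38 of the 48 imprinted genes were above 0 FPKM in a single mouse. NC-chow mice 1, 5 and 6 had 29, 38 and 34 of them. IVF-chow mice 2, 3 and 4 had 37, 33 and 34. FET-chow mice 2, 3 and 4 had 15, 30 and 22. The FET-chow libraries were the 3 shallowest, and FET-chow mouse 3, with 30 genes, lay above NC-chow mouse 1, with 29. Of nuclear protein-coding genes, 31.5% to 48.2% were above 0 in the FET-chow mice, against 46.9% to 64.4% in the NC-chow mice and 53.0% to 62.1% in the IVF-chow mice. Counted over groups, 26 members (54.2%) were above 0 in every NC-chow mouse, 28 (58.3%) in every IVF-chow mouse and 13 (27.1%) in every FET-chow mouse. The same shares of protein-coding genes were 45.4%, 45.2% and 24.9%. Without FET-chow mouse 2 the FET-chow number was 21. At a limit of 1 FPKM in every mouse, the number was 7 in each of the 3 groups.

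**Figure D1:**
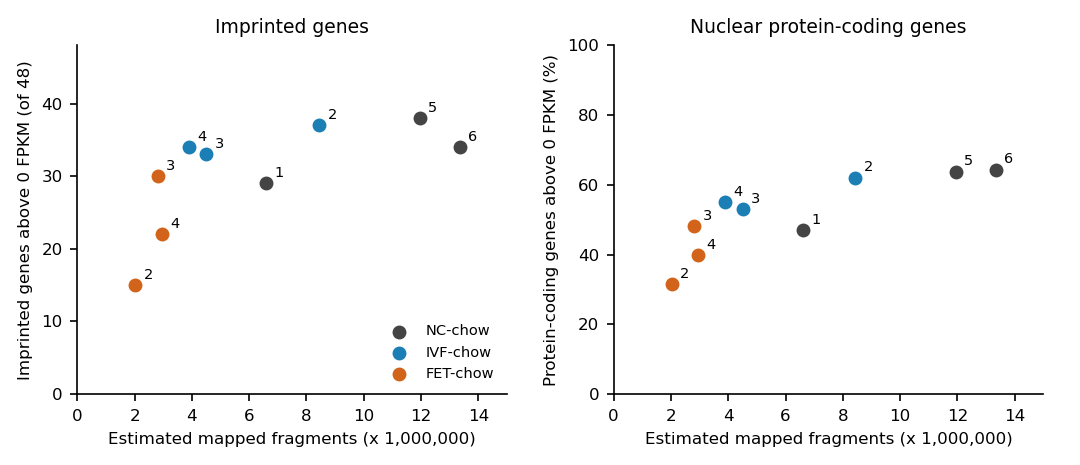
Number of imprinted genes above 0 FPKM (left, of 48) and percent of nuclear protein-coding genes above 0 FPKM (right) against the estimated number of mapped fragments. Each point is 1 mouse, numbered as in the labels, and the 3 FET-chow mice lie at the lowest depths, with 15, 30 and 22 imprinted genes.

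The 13 members above 0 in all 9 mice were Slc22a18, Gnas, Cd81, Dcn, Meg3, H13, Blcap, Tssc4, Ube3a, Commd1, Ppp1r9a, Rian and Inpp5f. By the assignment used here, 12 of these are maternal-copy genes and only Inpp5f, an inositol phosphatase, is a paternal-copy gene. Whether each member is imprinted in liver was not measured, so counts by copy compare lists of names. Of the 25 paternal-copy members, 11 were above 0 in every NC-chow mouse, 12 in every IVF-chow mouse and 1 in every FET-chow mouse. Of the 23 maternal-copy members the numbers were 15, 16 and 12. The paternal-copy members were also lower in level, with a median FPKM over the 9 mice of 0.0804 against 0.278 for the maternal-copy members. In FET-chow mouse 2, the 5 paternal-copy members with an NC-chow mean from 1 to 10 FPKM (Ddc, Snrpn, Zrsr1, Impact and Mcts2) were all listed at 0, and none of the 6 maternal-copy members in that range was. Of protein-coding genes in that range, 28% were listed at 0 in that mouse. From 0.1 to below 1 FPKM the counts were equal in that mouse, with 5 of 7 paternal-copy and 5 of 7 maternal-copy members listed at 0, against 67.8% of protein-coding genes. In FET-chow mouse 4, Ddc and Mcts2 were listed at 0, against 18.2% of such genes, and in FET-chow mouse 3 none was, against 7.1%. In the 3 IVF-chow mice none of the 11 was listed at 0, against 1.75% to 3.46% of such genes.

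**Figure D2:**
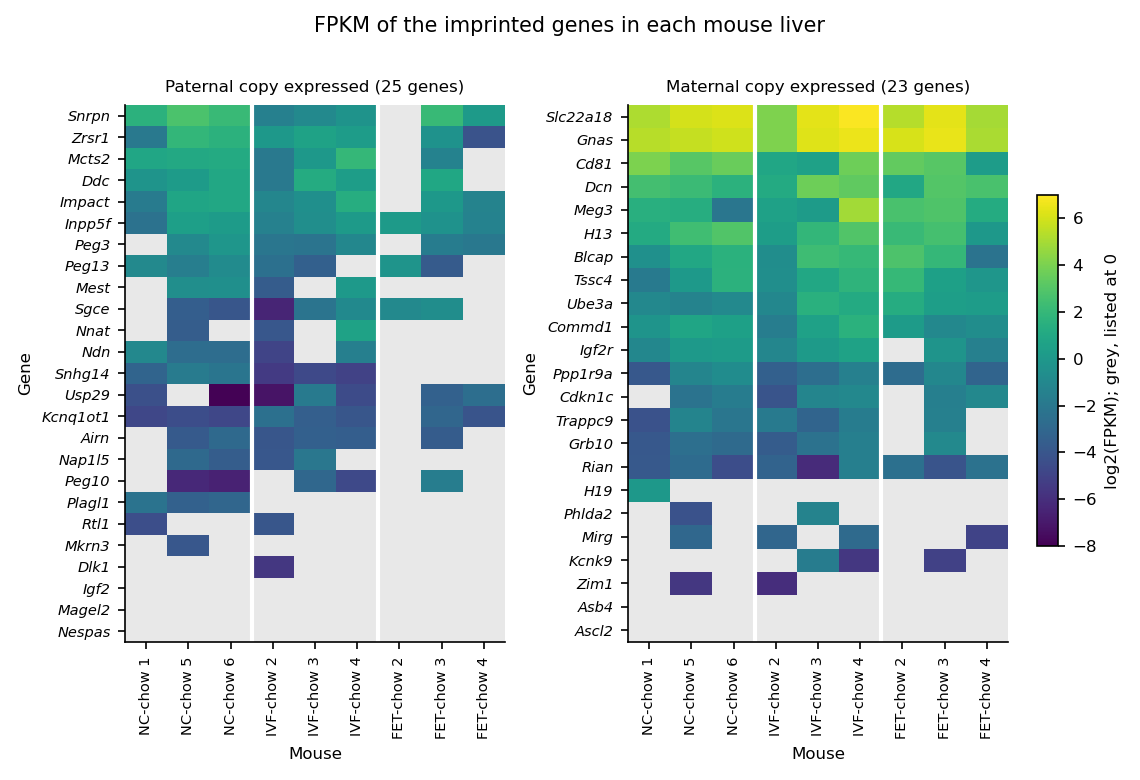
FPKM of each of the 48 imprinted genes (rows, ordered by mean) in each of the 9 mice (columns), colored by log2(FPKM) with grey for values listed at 0. Maternal-copy genes (right) fill more of the FET-chow columns than paternal-copy genes (left), of which 1 of 25 was above 0 in all 3 FET-chow mice.

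Of the 48 members, 5 were listed at 0 in all 9 mice: Igf2, the fetal growth factor, Asb4, Magel2, Ascl2 and Nespas. For Igf2 this value has a limit, since 62.8% of its exon bases are shared on the same strand with Gm49394, which was above 0 in 7 mice and reached 1.95 FPKM in FET-chow mouse 3. Nespas shares 31.4% of its exon bases with Gnas on the opposite strand. Whether counting used the strand is not given in the sources used here, so overlapping genes of opposite strands may not be told apart. Dlk1, which restrains differentiation in the fetus, was above 0 only in IVF-chow mouse 2, at 0.0214 FPKM. H19, the growth-restraining fetal RNA, was above 0 only in NC-chow mouse 1, at 0.995 FPKM, equal to an estimated 15.01 fragments, and was listed at 0 in NC-chow mice 5 and 6. Another 13 members had a mean above 0 and up to 0.1 FPKM besides Dlk1 (Usp29, Zim1, Peg10, Mkrn3, Snhg14, Kcnq1ot1, Phlda2, Mirg, Rtl1, Plagl1, Nap1l5, Airn and Kcnk9), and in none of these did a mouse exceed 0.404 FPKM.

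The mean of 14 members lay between 0.1 and 1 FPKM. Igf2r, the receptor that clears IGF2, was at 0.477, 1.08 and 1.19 FPKM in NC-chow, 0.454, 1.12 and 1.55 FPKM in IVF-chow and 0, 0.857 and 0.367 FPKM in FET-chow, so all 3 groups overlapped. Grb10, an adaptor that dampens insulin receptor signaling, ranged from 0 to 0.517 FPKM and was listed at 0 in FET-chow mice 2 and 4. Cdkn1c, an inhibitor of the cell cycle, was listed at 0 in NC-chow mouse 1 and FET-chow mouse 2 and was highest in FET-chow mouse 4, at 0.511 FPKM. Inpp5f ranged from 0.195 to 1.39 FPKM and Ppp1r9a from 0.0693 to 0.614 FPKM, both with their lowest value in NC-chow mouse 1. Mest was above 0 in 4 mice and listed at 0 in all FET-chow mice, and Nnat was above 0 in 3 mice, with its highest value, 1.54 FPKM, in IVF-chow mouse 4. Peg3, Sgce, Trappc9, Peg13 and Rian lay between 0 and 0.92 FPKM.

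Altogether 17 members were listed at 0 in every FET-chow mouse and 8 in every IVF-chow mouse. A floor of 3 fragments over the 3 libraries of a group was computed from the length of each gene. For 12 of the 17 members in FET-chow, and 6 of the 8 in IVF-chow, the NC-chow mean lay at or under that floor, so a fall was not detectable at this depth. The NC-chow mean lay above the floor for H19, Mest, Ndn, Snhg14 and Plagl1 in FET-chow, and for H19 and Plagl1 in IVF-chow. Only Ndn, Snhg14 and Plagl1 of these were above 0 in all 3 NC-chow mice.

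Plagl1, a zinc-finger transcription factor of fetal growth, was at 0.204, 0.0972 and 0.123 FPKM in NC-chow, and the other 6 mice were each listed at 0. The NC-chow mean of 0.141 FPKM stood against floors of 0.0339 FPKM in IVF-chow and 0.0734 FPKM in FET-chow, and each NC-chow value equals an estimated 6.1 to 8.6 fragments. Snhg14, the long RNA that runs on from Snrpn toward Ube3a, was at 0.111, 0.297 and 0.223 FPKM in NC-chow mice. It was at 0.0231, 0.0389 and 0.0301 FPKM in IVF-chow mice, each equal to an estimated 0.8 to 1.3 fragments, and was listed at 0 in the FET-chow mice, where the floor was 0.0563 FPKM. Ndn, a paternal-copy gene of the same cluster as Snrpn, was at 0.497, 0.16 and 0.161 FPKM in NC-chow, 0.0327, 0 and 0.354 FPKM in IVF-chow and 0 in FET-chow mice. Of all genes above 0 in every NC-chow mouse with an NC-chow mean from 0.1 to below 1 FPKM, 16.0% were listed at 0 in every FET-chow mouse, 2.45% in every IVF-chow mouse and 1.67% in all 6 of these mice. Of the 10 members in that class, the numbers were 3, 1 and 1. Over all genes above 0 in at least 1 mouse, 10.6% were lower in FET-chow than in NC-chow without overlap and 4.51% lower in IVF-chow. Of the 43 such members, 4 were lower in FET-chow (Ndn, Snhg14, Plagl1 and Mcts2) and 4 in IVF-chow (Snrpn, Snhg14, Plagl1 and Peg13). After rescaling each library to its nuclear protein-coding genes, so that these have the same sum in every mouse, the groups overlapped for Peg13 and stayed apart for the others. On that scale 8.24% of all such genes were lower without overlap in FET-chow and 5.10% in IVF-chow, against 4 of 43 members in each. The fourth in IVF-chow was then Cd81. Kcnq1ot1, the paternal-copy antisense RNA of the Kcnq1 cluster, was the 1 member higher in IVF-chow than in NC-chow without overlap (1.69% of all such genes). It was at 0.0360, 0.0461 and 0.0350 FPKM in NC-chow and 0.183, 0.0926 and 0.0629 FPKM in IVF-chow, and these groups overlapped after rescaling. Grb10 was higher in every IVF-chow mouse than in every NC-chow mouse only after rescaling (0.164 to 0.223 against 0.0787 to 0.138 FPKM), as were 3.78% of all such genes. These Grb10 values rest on few fragments, an estimated 3.4 to 6.8 per IVF-chow mouse and 2.3 to 10.5 per NC-chow mouse. Of the members named here all but Mcts2, Snrpn and Cd81 were below the filter of the tests. In the limma fit without that filter, over 27411 genes, Plagl1 had an adjusted p of 0.717 in IVF-chow and 0.454 in FET-chow against NC-chow, and Snhg14 had 0.717 and 0.493.

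The comparison of groups asked whether the level of imprinted genes differed with the mode of conception. Of the 48 members, 15 had a mean FPKM of at least 1 and were tested with limma on log2(FPKM + 1) among 6755 genes, and the other 33 were not tested. Since a member can pass this filter through a single high group, counts over these 15 do not stand for all 48. With a Benjamini-Hochberg adjusted p under 0.05, limma called 0 of 15 members in each comparison. Of all genes tested it called 0.237% for FET-chow against NC-chow, 0.0592% for IVF-chow against NC-chow and 0.0888% for the last pair, FET-chow against IVF-chow. At an unadjusted p under 0.05, limma gave 3 of 15 members, 1 of 15 and 0 of 15, against 12.0%, 4.07% and 4.01% of all genes. Without 1 mouse these numbers of members ran from 1 to 4, 1 to 2 and 0 to 1. The 3 in FET-chow against NC-chow (Mcts2, Snrpn and Zrsr1) were all lower, as were 10.1% of all genes at that p. The 2 comparisons with NC-chow share the same control mice.

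The fold changes of the members were set beside those of all genes, whose median on the log2(FPKM + 1) scale was -0.46, -0.25 and -0.20 in the 3 comparisons. In FET-chow against NC-chow, 9 of 15 members had a negative log2 fold change (74.4% of all genes) and the members' median was -0.39. Without 1 mouse the number ran from 8 to 11 and the median from -0.64 to -0.08. All 5 paternal-copy members were negative (-1.44 to -0.64), as were 4 of 10 maternal-copy members (-1.04 to 1.24 over the 10). Under the 3 scalings (median-ratio, quantile and rescaling to protein-coding genes) the 5 stayed negative, and 2 or 3 of the 10 were. Without FET-chow mouse 2 or mouse 3 the 5 were again negative, but so were 6 of the 10. Impact turned positive without NC-chow mice 5 and 6. Ddc, Impact, Zrsr1 and Mcts2 passed the filter narrowly, with means of 1.01 to 1.31 FPKM over the 9 mice. Each had its highest group mean in NC-chow, so the filter favored negative signs against NC-chow. The sign count of the paternal-copy members therefore gives no support for a difference between the copies. In IVF-chow against NC-chow, 7 of 15 were negative (68.9% of all genes) and the median was 0.00. Leaving out 1 mouse gave 3 to 11 negative members and a median of -0.37 to 0.44. All 5 paternal-copy members were negative (-1.85 to -0.11), but the filter and the NC-chow mice are the same, so this is no separate support. Of these 5, Ddc and Impact turned positive under each of the 3 scalings and Zrsr1 under median-ratio scaling. Ddc, Impact and Zrsr1 all turned positive without NC-chow mice 5 and 6. In FET-chow against IVF-chow, 10 of 15 were negative (65.4% of all genes) and the median was -0.12. Without 1 mouse the number ran from 6 to 13 and the median from -0.63 to 0.19. After rescaling to protein-coding genes, the median of all genes was -0.06, -0.07 and 0.02, and the members' median was 0.06, 0.08 and 0.09.

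**Figure D3:**
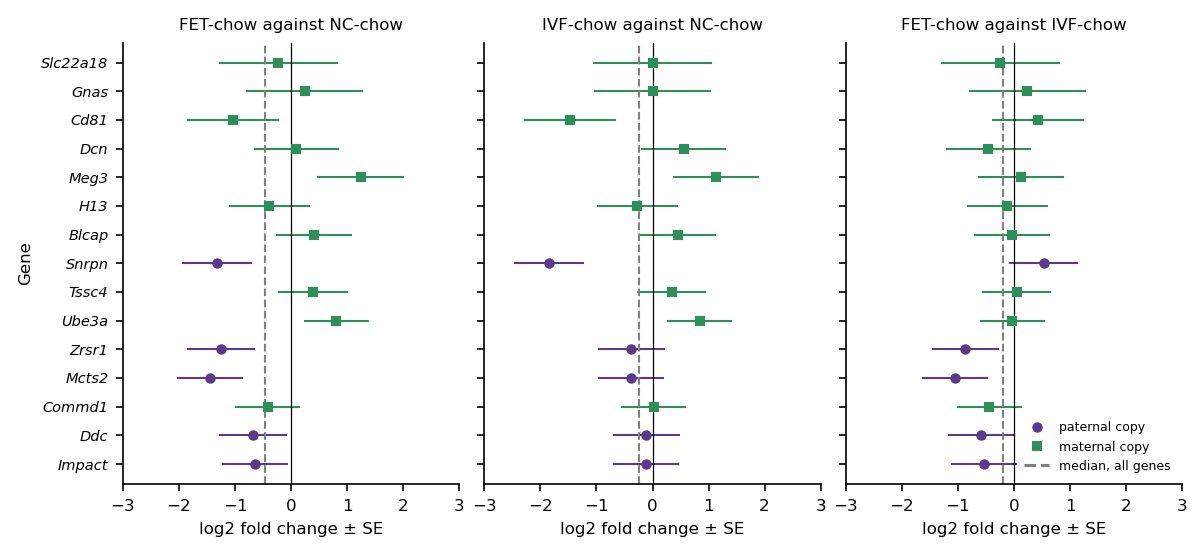
The log2 fold change (on log2(FPKM + 1)) of the 15 tested imprinted genes in the 3 comparisons, as points with bars of 1 standard error from limma. Circles are paternal-copy and squares maternal-copy genes, and the dashed line is the median of all 6755 genes, at -0.46, -0.25 and -0.20.

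In the Snrpn cluster on chromosome 7, the paternal-copy genes Snrpn and Snhg14 were lower in every IVF-chow mouse than in every NC-chow mouse. Snrpn, which encodes a protein of the splicing machinery, lies at chr7:59982495-60140219 on the minus strand. It was at 3.12, 6.78 and 4.52 FPKM in the NC-chow mice, 0.369, 0.524 and 0.805 FPKM in the IVF-chow mice and 0, 4.32 and 1.12 FPKM in the FET-chow mice. The IVF-chow mice all lay below the NC-chow mice, whereas FET-chow mouse 3 lay within the NC-chow range. In IVF-chow against NC-chow the log2 fold change was -1.85 (SE 0.62), with an unadjusted p of 0.00442 and an adjusted p of 0.511 (limma). Snrpn was the 1 tested member that was lower without overlap in this comparison, as were 5.46% of all genes tested. In FET-chow against NC-chow it was -1.32 (SE 0.62, adjusted p = 0.384), and -0.74 without FET-chow mouse 2. The IVF-chow values equal an estimated 4.9 to 6.5 fragments each, and those of the NC-chow mice 42.8 to 168. Snrpn shares 27.3% of its exon bases with Gm38393 and 10% with Snurf on the same strand, and neither exceeded 0.579 FPKM in a mouse. After rescaling, Snrpn was at 3.64, 5.36 and 3.15 FPKM in NC-chow mice and 1.03, 0.524 and 0.382 FPKM in IVF-chow mice, so these groups stayed apart, as for 11.3% of all genes tested on that scale.

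Ube3a, the maternal-copy gene at the other end of this cluster, encodes a ubiquitin ligase and lies at chr7:59228750-59311536 on the plus strand. It was at 0.497, 0.411 and 0.529 FPKM in NC-chow, 0.472, 2.83 and 2.27 FPKM in IVF-chow and 2.39, 1.31 and 1.24 FPKM in FET-chow. Every FET-chow mouse lay above every NC-chow mouse, which held for 1.98% of all genes tested, and IVF-chow mouse 2 lay within the NC-chow range. The log2 fold change in FET-chow against NC-chow was 0.81 (SE 0.58, adjusted p = 0.604, limma), in the direction opposite to that of the paternal-copy genes of the cluster given here, Snrpn, Snhg14 and Ndn. After rescaling, Ube3a was at 0.579, 0.325 and 0.369 FPKM in NC-chow mice and between 1.08 and 2.98 FPKM in all 6 other mice, and the log2 fold change was 1.17 (SE 0.38, adjusted p = 0.212) in FET-chow and 0.90 (SE 0.38, adjusted p = 0.879) in IVF-chow against NC-chow. On that scale 9.99% and 4.87% of all genes tested were higher without overlap in these comparisons. Snhg14 shares 1803 exon bases with Ube3a on the opposite strand (8.74% of the Ube3a exon bases). The gene models Gm44560 and 9330162G02Rik share 9.82% and 8.71% on that strand. Gm44560 was listed at 0 in every NC-chow mouse and reached 3.67 FPKM in IVF-chow mouse 3, the mouse with the highest Ube3a as deposited, and was listed at 0 in FET-chow mice 2 and 4. Its part in the Ube3a values was not tested.

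**Figure D4:**
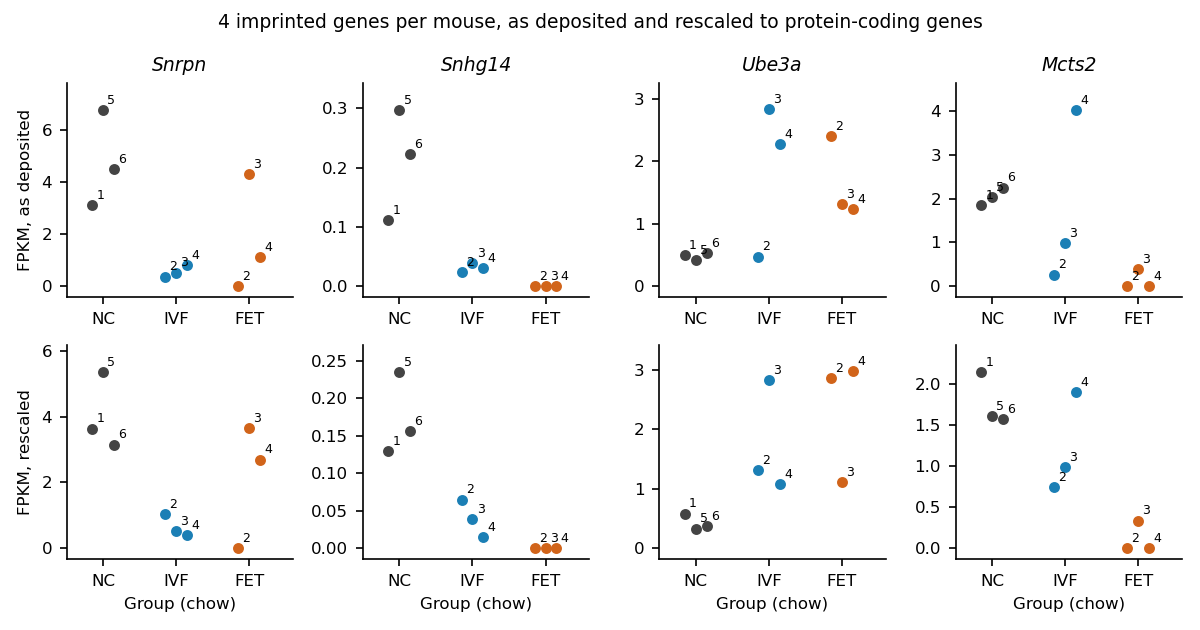
FPKM of Snrpn, Snhg14, Ube3a and Mcts2 in each mouse (points, numbered as in the labels) by group, as deposited (top) and after rescaling each library to its nuclear protein-coding genes (bottom). On both scales Snrpn and Snhg14 lay lower in each IVF-chow mouse than in any NC-chow mouse, and after rescaling Ube3a lay above the NC-chow range in the other 6 mice.

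The other paternal-copy members tested lie outside this cluster. Mcts2, a relative of the translation factor gene Mcts1, lies in an intron of H13 at chr2:152687035-152687946 on the plus strand. It was at 1.84, 2.04 and 2.25 FPKM in NC-chow, 0.265, 0.991 and 4.01 FPKM in IVF-chow and 0, 0.397 and 0 FPKM in FET-chow. All FET-chow mice lay below all NC-chow mice, as for 17.1% of all genes tested. FET-chow mouse 3 lay above IVF-chow mouse 2, so these groups overlapped as deposited. After rescaling, Mcts2 was at 0, 0.336 and 0 FPKM in FET-chow and 0.739, 0.991 and 1.90 FPKM in IVF-chow and these groups stood apart (6.01% of all genes tested), with a log2 fold change of -0.97 (SE 0.35, unadjusted p = 0.0187, adjusted p = 0.469, limma). As deposited, the log2 fold change in FET-chow against NC-chow was -1.44 (SE 0.59), with an unadjusted p of 0.0185 and an adjusted p of 0.319 (limma). This short gene gave an estimated 11.1 to 27.4 fragments per NC-chow mouse. It gave 2.04, 4.07 and 14.2 in the IVF-chow mice and 0, 1.02 and 0 in the FET-chow mice. A floor of 3 fragments in a single library stood at 1.63, 1.17 and 1.12 FPKM in the FET-chow mice. The gap between FET-chow and IVF-chow after rescaling thus rests on few fragments. The surrounding gene H13, a signal peptide peptidase assigned to the maternal copy, was at 2.27, 5.22 and 7.49 FPKM in NC-chow. It was at 1.29, 3.89 and 7.74 FPKM in IVF-chow and 4.53, 5.92 and 1.01 FPKM in FET-chow, with all 3 groups overlapping.

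Zrsr1, a retrogene related to a splicing factor gene, lies within Commd1 at chr11:22972005-22976496 on the plus strand. It was at 0.264, 3.79 and 3.15 FPKM in NC-chow, 1.01, 1.54 and 1.24 FPKM in IVF-chow and 0, 0.768 and 0.0558 FPKM in FET-chow. FET-chow mice all lay below IVF-chow mice (log2 fold change -0.87, SE 0.60, adjusted p = 1, limma), as for 2.56% of all genes tested, but after rescaling these groups overlapped. Against NC-chow the log2 fold change was -1.25 (SE 0.60, unadjusted p = 0.0415, adjusted p = 0.394), and NC-chow mouse 1 lay below FET-chow mouse 3. Without NC-chow mice 5 and 6 it was -0.04. Zrsr1 shares 9.17% of its exon bases with Commd1 on the opposite strand. Commd1 itself, a copper-handling gene, overlapped in all groups, at 0.863, 1.8 and 1.46 FPKM in NC-chow, 0.319, 1.49 and 3.05 FPKM in IVF-chow and 1.18, 0.493 and 0.636 FPKM in FET-chow. Ddc, which makes dopamine and serotonin, was at 0.847, 1.19 and 1.97 FPKM in NC-chow, 0.264, 2.35 and 1.27 FPKM in IVF-chow and 0, 1.89 and 0 FPKM in FET-chow. Impact, an inhibitor of the amino acid sensor GCN2, was at 0.294, 1.8 and 1.96 FPKM in NC-chow, 0.456, 0.684 and 2.51 FPKM in IVF-chow and 0, 1.01 and 0.402 FPKM in FET-chow. Neither Ddc nor Impact had groups that stood apart.

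**Figure D5:**
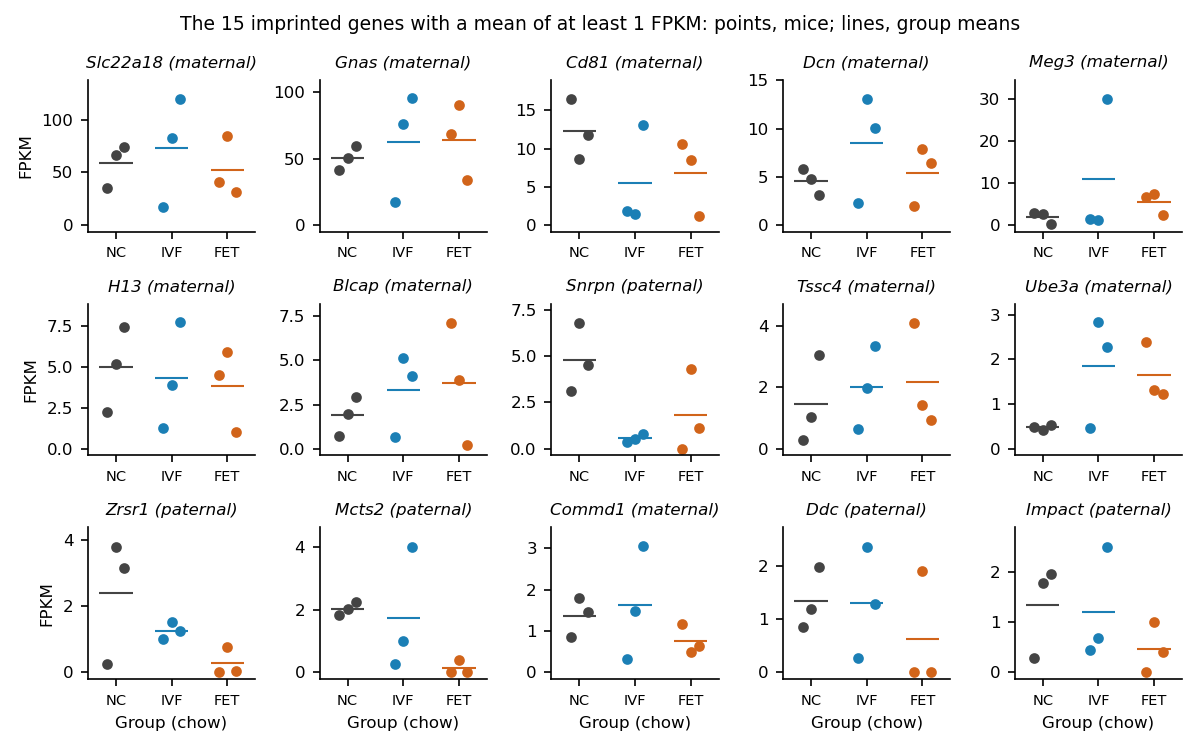
FPKM of the 15 imprinted genes with a mean of at least 1 FPKM in each mouse (points) by group. The group mean is a line and the assigned parental copy is in the title. The 5 paternal-copy genes lie between 0 and 6.78 FPKM and are each listed at 0 in FET-chow mouse 2, whereas Slc22a18 and Gnas lie between 17.2 and 120 FPKM in every mouse.

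The most abundant members were the maternal-copy genes Slc22a18 and Gnas. Slc22a18, a membrane transporter of the Kcnq1 cluster, was at 35.2, 66.4 and 74.3 FPKM in NC-chow, 17.3, 82.6 and 120 FPKM in IVF-chow and 40.5, 84.2 and 31.0 FPKM in FET-chow, with means of 58.6 ± 20.7, 73.3 ± 52.0 and 51.9 ± 28.4 FPKM (SD, n = 3 each). Gnas, which encodes the stimulatory G protein alpha subunit, was at 41.8, 50.5 and 59.8 FPKM in NC-chow, 17.2, 75.8 and 95.4 FPKM in IVF-chow and 68.4, 90.5 and 33.9 FPKM in FET-chow. The groups overlapped for both genes as deposited, and IVF-chow mouse 2 was the lowest mouse for each. In that library nuclear protein-coding genes made up 4.36% of the summed FPKM. After rescaling, Gnas was at 48.7, 40.0 and 41.7 FPKM in NC-chow, 48.04, 75.8 and 45.3 FPKM in IVF-chow and 81.9, 76.5 and 81.5 FPKM in FET-chow. The FET-chow mice then lay above all others, with a log2 fold change against NC-chow of 0.87 (SE 0.32, adjusted p = 0.233, limma), and on that scale 9.99% of all genes tested were higher without overlap than in NC-chow and 6.72% higher than in IVF-chow. As deposited, the log2 fold change of Gnas was 0.24, and it turned negative without FET-chow mouse 3. After rescaling, 15 genes that every cell uses summed to 791 to 1090 FPKM in FET-chow and 648 to 708 FPKM in NC-chow. The sum over Kupffer cell markers was also higher, at 44.1 to 122 against 30.6 to 33.8 FPKM. The sum over hepatocyte markers was lower (18800 to 23400 against 23800 to 25200 FPKM). So was that over lymphocyte markers (0.919 to 3.06 against 3.14 to 9.71 FPKM), of which 1 or 2 of 8 were above 0 in a FET-chow mouse. Such sums are set mostly by their most abundant genes. As deposited, single markers went both ways against NC-chow. A negative log2 fold change was found for 8 of 9 hepatocyte markers and 4 of 7 tested Kupffer cell markers, and the others were positive. The part of the shifts in these sums in the rescaled Gnas, Ube3a and Meg3 values was not tested.

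Cd81, a tetraspanin of the cell surface, was at 16.5, 8.68 and 11.8 FPKM in NC-chow, 1.87, 1.51 and 13.1 FPKM in IVF-chow and 10.7, 8.53 and 1.23 FPKM in FET-chow, so that 2 IVF-chow mice and 1 FET-chow mouse lay below all others. After rescaling, Cd81 was at 19.2, 6.86 and 8.23 FPKM in NC-chow and 5.23, 1.51 and 6.24 FPKM in IVF-chow. Every IVF-chow mouse then lay below every NC-chow mouse (11.3% of all genes tested), with a log2 fold change of -1.23 (SE 0.58, adjusted p = 0.91, limma). Tssc4, from the same cluster, was at 0.289, 1.02 and 3.06 FPKM in NC-chow, 0.654, 1.98 and 3.35 FPKM in IVF-chow and 4.09, 1.43 and 0.932 FPKM in FET-chow. Blcap was at 0.727, 1.99 and 2.94 FPKM in NC-chow, 0.640, 5.15 and 4.14 FPKM in IVF-chow and 7.11, 3.91 and 0.201 FPKM in FET-chow. The 3 groups overlapped for both genes. Meg3, the long non-coding RNA of the Dlk1 cluster, was at 2.76, 2.52 and 0.231 FPKM in NC-chow, 1.51, 1.19 and 29.9 FPKM in IVF-chow and 6.56, 7.46 and 2.38 FPKM in FET-chow. IVF-chow mouse 4 alone set the IVF-chow mean for Meg3, and Rian, from the same cluster, was also highest in that mouse as deposited, at 0.353 FPKM. After rescaling, Rian was highest in FET-chow mouse 4, at 0.470 FPKM. Meg3 was then at 3.22, 1.99 and 0.161 FPKM in NC-chow and 7.85, 6.30 and 5.73 FPKM in FET-chow, so that every FET-chow mouse lay above every NC-chow mouse (9.99% of all genes tested). The log2 fold change was 1.63 (SE 0.68, unadjusted p = 0.037, adjusted p = 0.273, limma).

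Dcn encodes decorin, a matrix proteoglycan made by stellate cells and fibroblasts, and was at 5.84, 4.74 and 3.12 FPKM in NC-chow, 2.29, 13.1 and 10.04 FPKM in IVF-chow and 1.98, 7.88 and 6.40 FPKM in FET-chow. Its 2 lowest mice, FET-chow mouse 2 and IVF-chow mouse 2, were also the 2 lowest for the summed level of 10 stellate cell and fibroblast markers, at 8.07 and 4.65 FPKM. That sum ranged from 9.5 to 10.5 FPKM in NC-chow, 4.65 to 16.6 FPKM in IVF-chow and 8.07 to 13.5 FPKM in FET-chow, with 7 of 10 markers above 0 in FET-chow mouse 2. After rescaling, IVF-chow mouse 2 was among the 2 lowest for neither, with 6.40 FPKM for Dcn and 12.98 FPKM for the sum, which was the highest of the IVF-chow mice. The part of these cells in the Dcn values was not tested.

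Genes around the imprinted list were read from 2 further lists. Of 22 genes that lay down, guard or remove DNA methylation or act on chromatin (DNA methyltransferases and TET enzymes among them), 6 were tested (Ctcf, Ehmt2, Setdb1, Suz12, Trim28 and Zfp445), and limma called 0 in each comparison, with 0 at an unadjusted p under 0.05. All 6 had a negative log2 fold change in FET-chow against NC-chow, as did 74.4% of all genes tested, with a median of -0.82 against -0.46 for all genes. Of the 6, 3 were lower there without overlap (17.1%). These signs are for FPKM as deposited. After rescaling, the 22 genes summed to 29.3 to 33.8 FPKM in NC-chow and 18.2 to 30.8 FPKM in FET-chow, which overlapped. The 6 were also negative in IVF-chow against NC-chow, as were 68.9% of all genes tested, with a median of -0.50 against -0.25. Zfp445, a zinc-finger protein that binds imprinting control regions, was at 8.75, 16.7 and 18.7 FPKM in NC-chow, 5.19, 5.87 and 17.2 FPKM in IVF-chow and 8.01, 4.69 and 2.82 FPKM in FET-chow (log2 fold change -1.37, SE 0.81, adjusted p = 0.508 for FET-chow against NC-chow). Of 39 other imprinted genes, 8 were tested and 1 was called in FET-chow against NC-chow. All 8 were negative there (74.4% of all genes tested), with a median of -0.86 against -0.46, and 4 of the 8 were lower without overlap (17.1%). In IVF-chow against NC-chow 7 of the 8 were negative (68.9%), with a median of -0.63 against -0.25. After rescaling, the 39 genes summed to 64.6 to 73.3 FPKM in NC-chow, 34.9 to 43.4 FPKM in IVF-chow and 28.5 to 51 FPKM in FET-chow. That sum is set mostly by its most abundant genes and was not tested. The gene called in FET-chow against NC-chow was Dhcr7, the last enzyme of cholesterol synthesis. It was at 4.88, 8.61 and 9.04 FPKM in NC-chow, 0.748, 2.98 and 0.216 FPKM in IVF-chow and 0.493, 0.478 and 0 FPKM in FET-chow. Dhcr7 had a log2 fold change of -2.67 (SE 0.61, adjusted p = 0.032, limma), but the call was lost under 13 of 17 alternatives. These included rescaling (adjusted p = 0.0702) and leaving out NC-chow mouse 5 or 6, IVF-chow mouse 2 or 4, or FET-chow mouse 3 or 4 (adjusted p of 0.0617 to 0.205). The log2 fold change stayed negative under all 17, at -2.92 to -2.48 without 1 mouse and -2.18 without NC-chow mice 5 and 6. No gene of either list was called in the other 2 comparisons.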

How the data were processed

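Liver RNA of 9 mice (3 per group) was analysed. Per the submitters' processing notes the tools were FastQC 0.11.5, STAR 2.5.3a, StringTie 1.3.1c and DESeq2 1.16.1, without roles. The authors deposited FPKM values. The genome build, the annotation and strandedness are not given in the sources used here. Symbols came from GENCODE vM21 (GRCm38), which matched 55154 of 55335 identifiers and left 181 without a symbol. The depth was estimated from steps of up to 8 fragments with a tolerance of 2%. Depth and floors cover counting error only. The R package limma (version 3.58.1, R version 4.3.3) was applied to log2(FPKM + 1) with a trend on the mean, over the 6755 genes with a mean of at least 1 FPKM. One model held the 3 groups, tests were two-sided, and adjustment was by Benjamini-Hochberg over all genes tested. A fold change on this scale understates the change of low genes. Both procedures were tested on simulated data. Tested members are given per mouse, with tests where the unadjusted p was under 0.05 or the groups did not overlap, and the other members by range. From the further lists, genes past the threshold are named, or else at most the 3 highest, of which those the text turns on are given. Values after rescaling are named where used. Members and lists were chosen with earlier results of these data known.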

Additional observations from a re-analysis of the deposited data

How the results depend on the processing

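The log2 fold changes of Snrpn, Mcts2 and Zrsr1 in FET-chow against NC-chow, of Snrpn in IVF-chow against NC-chow, of Ube3a in FET-chow against NC-chow and of Zrsr1 in FET-chow against IVF-chow changed direction under none of 17 alternatives. Gnas in FET-chow against NC-chow turned negative without FET-chow mouse 3. The number of members called was 0 in all 3 comparisons under each alternative except array weights, which called 3 in FET-chow against NC-chow and 9 in IVF-chow against NC-chow. In FET-chow against NC-chow, the smallest change simulated was larger than that of any member and was rarely recovered, so a count of 0 says little about stability there. The other 2 comparisons were not simulated. The fit with array weights gave 96.1% of all weight to IVF-chow mouse 3. Members above 0 in every mouse numbered 26, 28 and 13 in NC-chow, IVF-chow and FET-chow. At a limit of 1 FPKM the number was 7 in each group, and in at least 1 mouse it was 41 in NC-chow and 31 in FET-chow. Leaving out 1 mouse gave 26 to 33, 30 to 32 and 13 to 21. Over all genes, calls were few and unstable. In FET-chow against NC-chow there were 16, with 26 by median-ratio scaling, 1076 by array weights, 6 without NC-chow mice 5 and 6, and 0 both without the filter and with only those groups in the fit. Leaving out 1 mouse gave 1 to 83. In IVF-chow against NC-chow there were 4, with 3772 by array weights, 2 without NC-chow mice 5 and 6, and 0 with a pseudocount of 0.1, no filter, any of the 3 scalings or only those groups. Leaving out 1 mouse gave 0 to 24. In FET-chow against IVF-chow there were 6, with 499 by array weights, 2 with the replicate block, and 0 without the filter or with only those groups. Leaving out 1 mouse gave 0 to 10. Same-numbered mice of IVF-chow and FET-chow had residual correlations of -0.13, 0.02 and -0.26 and share only a number, and the block changed no member's call. Over the alternatives the adjusted p of Snrpn in IVF-chow against NC-chow ran from 2.38e-08 (array weights) to 1, that of Mcts2 in FET-chow against NC-chow from 0.0204 to 1, and that of Dhcr7 from 0.000643 to 1. The cause of these shifts was not tested. Depth limits the members under 1 FPKM, above all in FET-chow. Members with an NC-chow mean above that level were also listed at 0 in FET-chow mice 2 and 4. There 28% and 18.2% of protein-coding genes with an NC-chow mean from 1 to 10 FPKM were listed at 0. The share was 7.1% in FET-chow mouse 3, which had fewer estimated fragments than mouse 4 (2810000 against 2940000). The part of depth in these zeros was not tested.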
